A study of Mus musculus with 34 samples.

Results

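The 9 genes described here, Gfap, Vim, Serpina3n, Cd44, Lcn2, Steap4, Timp1, Cp and Aspg, are widely used markers of reactive astrocytes. They were chosen by name, with earlier results of these data known, and all 9 were found among the 55385 genes of the deposited tables. Hippocampal RNA of 34 mice, all aged 6 months, was sequenced, and the animals fell into 8 groups by genotype and treatment. Tofacitinib, an inhibitor of Janus kinases, was given by oral gavage at 15 mg/kg every day for a month, and sham animals received the vehicle, 0.5% methylcellulose. The tofacitinib groups held 4 5xFAD-Dp16, 5 5xFAD, 5 Dp16 and 5 wild-type C57BL/6J (WT) animals, and the sham groups held 3 5xFAD-Dp16, 4 5xFAD, 3 Dp16 and 5 WT animals. 5xFAD mice express mutant human genes of familial Alzheimer's disease in neurons, under the Thy1 promoter, and develop amyloid plaques. In Dp16 mice, a model of Down syndrome, a long part of chromosome 16 that corresponds to much of human chromosome 21 is present in 3 copies, and 5xFAD-Dp16 mice have both changes. Animals with the 5xFAD transgenes (16, of which 7 were female) are called carriers below, and the other 18 (9 female) noncarriers. For tofacitinib 5xFAD and sham 5xFAD-Dp16, 1 further animal each is named in the design and was not analysed here.

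Astrocytes respond to injury, inflammation and amyloid plaques by changing shape and gene expression, a state called reactivity. Gfap and Vim encode intermediate filament proteins of the astrocyte cytoskeleton, and a rise of Gfap is the classical sign of the response. Cytokines of the interleukin-6 family act on astrocytes through the shared receptor gp130 and the Janus kinases, which activate the transcription factor STAT3, a known activator of Gfap. Cytokines of microglia, the brain's resident macrophages, are also known to drive the response. In bulk tissue, fewer cells of a type and less RNA per cell cannot be told apart.

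The promoters of 4 members are shown because Gfap, Serpina3n and Timp1 carry the differences between genotypes described below and Vim encodes the filament partner of Gfap. Each window runs from 250 bases before to 50 bases after the gene's start in RefSeq on GRCm38.p6, 5′ to 3′ on the gene's strand. The Gfap window is chr11:102897151-102897450 (minus strand), Vim chr2:13574061-13574360 (plus), Serpina3n chr12:104406458-104406757 (plus) and Timp1 chrX:20869916-20870215 (plus). Capitals mark matches to the STAT motif TTCNNNGAA in Gfap and to the NF-kB consensus in Vim, where 2 of 3 matches overlap.
Gfap: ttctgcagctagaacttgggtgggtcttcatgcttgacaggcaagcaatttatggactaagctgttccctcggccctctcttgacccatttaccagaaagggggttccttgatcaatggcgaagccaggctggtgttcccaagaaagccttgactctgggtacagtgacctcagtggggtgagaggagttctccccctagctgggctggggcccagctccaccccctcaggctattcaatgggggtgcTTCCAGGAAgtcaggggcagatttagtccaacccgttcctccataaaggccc
Vim: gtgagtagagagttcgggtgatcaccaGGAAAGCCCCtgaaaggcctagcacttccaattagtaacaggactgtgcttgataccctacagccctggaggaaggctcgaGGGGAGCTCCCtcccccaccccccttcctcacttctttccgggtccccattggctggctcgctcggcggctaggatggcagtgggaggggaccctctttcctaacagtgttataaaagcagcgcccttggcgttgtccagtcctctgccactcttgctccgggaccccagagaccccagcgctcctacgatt
Serpina3n: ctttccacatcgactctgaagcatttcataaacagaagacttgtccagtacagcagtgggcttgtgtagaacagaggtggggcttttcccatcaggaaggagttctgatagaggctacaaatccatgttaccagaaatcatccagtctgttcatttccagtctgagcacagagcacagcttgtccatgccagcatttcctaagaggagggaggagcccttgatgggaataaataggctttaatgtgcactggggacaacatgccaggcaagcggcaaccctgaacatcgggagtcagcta
Timp1: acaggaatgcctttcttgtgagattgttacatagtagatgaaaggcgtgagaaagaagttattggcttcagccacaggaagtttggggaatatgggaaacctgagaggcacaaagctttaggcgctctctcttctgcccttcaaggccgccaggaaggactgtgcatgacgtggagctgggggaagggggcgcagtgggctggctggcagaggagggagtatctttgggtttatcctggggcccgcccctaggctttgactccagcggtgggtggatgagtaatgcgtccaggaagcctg

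All 9 members had a window in the RefSeq table (10 windows, since Cp has 2). On either strand, the STAT motif TTCNNNGAA occurred in the windows of Gfap and Steap4 and in 8.3% of all 32851 windows. In Gfap it spans positions -2 to 6 around the annotated start, as TTCCAGGAA, and in Steap4 positions -116 to -108. The NF-kB consensus matched the windows of Vim and Steap4 and 8.46% of all windows, and the AP-1 motif TGANTCA matched 1 Cp window and 7.81% of all windows. The interferon-stimulated response element matched no member window and 3.44% of all windows. These matches are letters in a short window and not sites of binding.

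The libraries held 14.9 to 21.11 M counts each (median 17.81 M), and 17518 genes passed the filter on low counts, among them all 9 members. The 14 markers of homeostatic astrocytes, which define the cell type, stood at a mean log2 CPM (counts per M, TMM-scaled) of 8.25 to 8.67 in 31 libraries. Another 3 libraries, WT tofacitinib 3, 5xFAD tofacitinib 2 and 5xFAD-Dp16 sham 4, stood apart in markers of brain region. Their hippocampal neuron markers were at 4.00, 4.64 and 4.13 on that scale, against 5.78 to 6.54 in the other 31 libraries. Striatal markers were at 6.47, 7.21 and 4.24 in them (3.35 to 5.08 elsewhere) and thalamic markers at 3.70, 6.99 and 6.11 (2.90 to 5.06 elsewhere). Neocortical markers were at 6.60, 3.91 and 2.65 (4.77 to 5.87 elsewhere), those of myelinating oligodendrocytes at 9.02, 9.66 and 9.92 (8.33 to 9.15 elsewhere) and those of the choroid plexus at 3.78, 6.37 and 5.46 (0.20 to 6.42 elsewhere). Thus WT tofacitinib 3 was outside the others' range in hippocampal, striatal and neocortical markers only, among these lists. Homeostatic astrocyte markers were at 8.37, 8.50 and 8.52 in them, within the range of the others. Results are given with all 34 libraries and, where the value matters, without these 3.

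Per kilobase of transcript, the members covered a wide range of levels. Gfap, on the minus strand of chromosome 11 (102887336 to 102900912, GRCm38), was the highest of the 9 at a mean of 167 RPKM (reads per kilobase and M reads) over the 34 libraries, ranging from 31.9 to 313. Vim on chromosome 2 averaged 25.4 RPKM (15.3 to 36.6), and Serpina3n on chromosome 12, which encodes a secreted serine protease inhibitor, averaged 21.0 RPKM (4.91 to 34.02). Cp, which encodes ceruloplasmin, a copper-containing ferroxidase, averaged 3.33 RPKM (1.94 to 7.97). Cd44, the cell surface receptor for hyaluronan, averaged 1.21 RPKM (0.499 to 1.98), and Aspg, which encodes an asparaginase, 0.543 RPKM (0.0608 to 1.09).

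The other 3 members were near the limit of detection. Timp1, which encodes an inhibitor of matrix metalloproteinases, averaged 0.299 RPKM with 164 counts in all, and had no count in 5 libraries. Steap4, which encodes a metalloreductase, averaged 0.243 RPKM with 475 counts in all, and had no count in 3 libraries. Lcn2, which encodes the iron-binding secreted protein lipocalin 2, averaged 0.226 RPKM with 131 counts in all, and had no count in 12 libraries. The ranges over libraries of Timp1 (0 to 0.899 RPKM), Steap4 (0 to 0.773) and Lcn2 (0 to 0.881) overlapped, so their order is not settled by these data, and those of Vim and Serpina3n overlapped likewise.

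**Figure D1:**
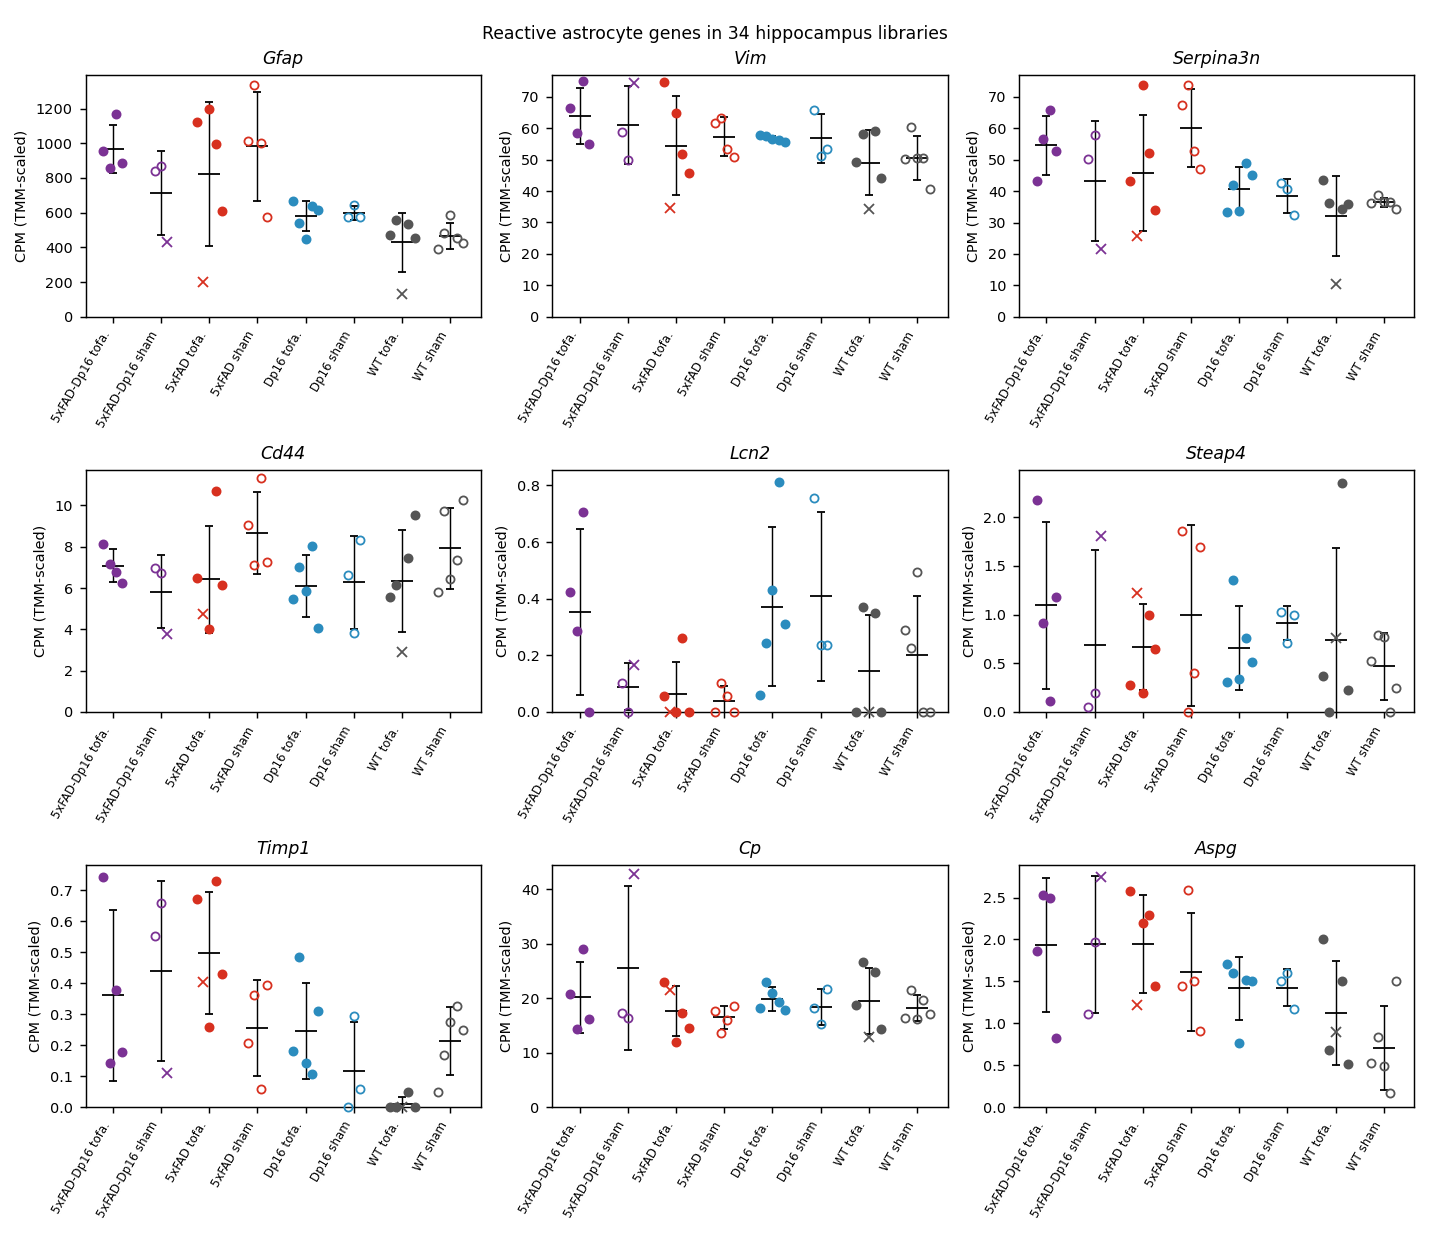
Each panel plots 1 member in CPM (counts per M, TMM-scaled) for every library of the 8 groups. Filled points are tofacitinib and open points sham animals, crosses are the 3 libraries low in hippocampal markers, and bars are the mean ± SD. Gfap reached 1336 CPM in a carrier and at most 668 CPM in noncarriers, while Timp1, Lcn2 and Steap4 had libraries at 0.

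The question whether plaque-bearing hippocampus raises these genes was addressed by the mean of the 4 matched contrasts of carriers against noncarriers of the same segment and treatment. Gfap and Timp1 rose, and the other 7 members did not pass the test with all 34 libraries. Serpina3n rose as well without the 3 libraries, which made 3 of 9 members called (1.58% of genes, 1.54% higher and 0.0336% lower). Thus 2 of 9 members were called higher and 0 lower, where 1.59% of all 17518 genes were higher and 0.00571% lower (edgeR's quasi-likelihood test, Benjamini-Hochberg adjusted p under 0.05).

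Gfap was at 956, 858, 1168 and 886 CPM in tofacitinib 5xFAD-Dp16 animals, and at 839, 869 and 433 CPM in sham 5xFAD-Dp16 animals. It was at 1121, 202, 1195, 998 and 611 CPM in tofacitinib 5xFAD animals, and at 1013, 1336, 1004 and 575 CPM in sham 5xFAD animals. The values of 202 and 433 CPM belong to 5xFAD tofacitinib 2 and 5xFAD-Dp16 sham 4, both low in hippocampal markers. In noncarriers Gfap was at 668, 539.5, 448, 636 and 614 CPM with tofacitinib and 574, 644 and 572 CPM with sham in Dp16 animals. It was at 469, 557, 133, 535 and 454 CPM with tofacitinib and 391, 485, 586, 452 and 423 CPM with sham in WT animals. Of the noncarriers only WT tofacitinib 3, also low in hippocampal markers, lay under 391 CPM.

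Gfap had a median of 921 CPM (202 to 1336) in 16 carriers and of 537 CPM (133 to 668) in 18 noncarriers. Of the carriers 12 lay above every noncarrier, a split that was not counted over all genes, here or for the members below. The difference was 1.68-fold, a log2 fold change of 0.75 (SE 0.19, 95% interval 0.36 to 1.14, adjusted p = 0.0351). In the 31 libraries the medians were 977 CPM (575 to 1336) in 14 carriers and 539.5 CPM (391 to 668) in 17 noncarriers. The log2 fold change was then 0.82 (SE 0.10, adjusted p = 6.39e-06). With all 34 libraries the call was not stable: it was lost in 19 of 34 fits that left out 1 library each, with adjusted p from 0.00154 to 0.0874. Those 19 libraries were WT sham 1, 2, 4 and 5, Dp16 tofacitinib 2 and 3, Dp16 sham 1, 2 and 3, 5xFAD tofacitinib 1, 4 and 5, 5xFAD sham 1, 2 and 3, 5xFAD-Dp16 tofacitinib 1 and 3, and 5xFAD-Dp16 sham 1 and 2. It was also lost when genes with at least 5, 10 or 34 counts in all libraries together were tested (adjusted p = 0.0734, 0.0619 and 0.0543), but not with at least 100 (adjusted p = 0.0422). In the set of 31 libraries it held in all 31 further fits that left out 1 more library (adjusted p at most 5.74e-05).

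Vim, the filament partner of Gfap, did not follow it to a call. It had a median of 58.7 CPM (34.7 to 75.0) in carriers and 54.4 CPM (34.4 to 65.6) in noncarriers, and the groups overlapped over most of their range. Its log2 fold change was 0.16 (SE 0.09, 95% interval -0.02 to 0.33, adjusted p = 0.534), and 0.12 (95% interval -0.01 to 0.25) without the 3 libraries. By group its mean was 63.8 ± 8.9 CPM (SD, n = 4) in tofacitinib and 61.1 ± 12.4 CPM (n = 3) in sham 5xFAD-Dp16 animals, and 54.4 ± 15.8 CPM (n = 5) in tofacitinib and 57.3 ± 6.12 CPM (n = 4) in sham 5xFAD animals. It was 56.7 ± 0.901 CPM (n = 5) in tofacitinib and 56.7 ± 7.78 CPM (n = 3) in sham Dp16 animals, and 49.0 ± 10.3 CPM (n = 5) in tofacitinib and 50.5 ± 6.94 CPM (n = 5) in sham WT animals. The lowest libraries were WT tofacitinib 3 at 34.4 and 5xFAD tofacitinib 2 at 34.7 CPM. In 5xFAD-Dp16 sham 4, where Gfap and Serpina3n were lowest in their group, Vim was highest of its group at 74.5 CPM.

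The protease inhibitors Serpina3n and Timp1 were both higher in carriers by their values. Serpina3n was at 43.1, 56.6, 65.7 and 52.8 CPM in tofacitinib 5xFAD-Dp16 animals and at 50.1, 58.0 and 21.7 CPM in sham 5xFAD-Dp16 animals. It was at 43.1, 25.8, 73.9, 52.2 and 33.9 CPM in tofacitinib 5xFAD animals and at 67.3, 73.7, 52.6 and 47.0 CPM in sham 5xFAD animals. The 2 lowest carriers, at 21.7 and 25.8 CPM, were again 5xFAD-Dp16 sham 4 and 5xFAD tofacitinib 2. Over carriers Serpina3n had a median of 52.4 CPM (21.7 to 73.9), against 36.4 CPM (10.4 to 49.0) over noncarriers, the lowest being WT tofacitinib 3. The log2 fold change was 0.46 (SE 0.16, adjusted p = 0.193) with all libraries and 0.51 (SE 0.09, adjusted p = 0.000892) without the 3. Of the 14 carriers left, 10 lay above every noncarrier, and the call held in all 31 further fits (adjusted p at most 0.0103). Serpina3n has close paralogs in its gene cluster, and the sources used here do not say how reads matching several copies were treated.

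Timp1 is known from so few reads that its counts are given. They were 14, 3, 7 and 3 in tofacitinib 5xFAD-Dp16 animals, 11, 10 and 2 in sham 5xFAD-Dp16 animals, 12, 7, 4, 14 and 8 in tofacitinib 5xFAD animals and 4, 7, 1 and 7 in sham 5xFAD animals. In noncarriers they were 3, 10, 3, 2 and 6 in tofacitinib Dp16 animals, 0, 5 and 1 in sham Dp16 animals, 0, 0, 0, 1 and 0 in tofacitinib WT animals and 1, 3, 5, 6 and 4 in sham WT animals. Every carrier had at least 1 count, while 5 noncarriers had none, 4 of them tofacitinib WT animals. Carriers summed to 114 counts and noncarriers to 50, a ratio per M counts of 2.54 with a 95% counting interval of 1.81 to 3.62, which covers counting error only.

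The fitted log2 fold change of Timp1 between carriers and noncarriers was 1.86 (SE 0.42, adjusted p = 0.0119), and 1.94 (SE 0.46, adjusted p = 0.0131) without the 3 libraries. This fitted value depends on the prior count, since 1 of its 4 contrasts is against tofacitinib WT animals with 1 count in all. By counts, the ratio of carriers to noncarriers was 43.1 in the tofacitinib 5xFAD and WT pair and 3.78 (95% counting interval 1.496 to 11.3) in the sham 5xFAD-Dp16 and Dp16 pair. It was 1.43 (0.796 to 2.60) in the tofacitinib 5xFAD-Dp16 and Dp16 pair and 1.24 (0.619 to 2.47) in the sham 5xFAD and WT pair, intervals that include no difference. The fitted log2 fold changes of these 4 pairs, in that order, were 4.77, 1.84, 0.54 and 0.28. The call held in each of 34 fits without 1 library (adjusted p 0.00438 to 0.0361) and in the 31 further fits without the 3 (at most 0.0466). With the replicate number added to the fit as a block, Timp1 did not pass, as given in the last section. Timp1 lies on the plus strand of the X chromosome (20870166 to 20874735) inside Syn1, a synaptic vesicle gene on the opposite strand with 415677 counts. Syn1 itself had a log2 fold change of -0.01 (adjusted p = 0.991). The libraries were strand-specific, but the sources used here do not state whether strand was used in counting, and whether reads of Syn1 reached Timp1 was not tested.

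Aspg, the asparaginase gene, had the smallest adjusted p among the members with no call. It was at 1.86, 2.54, 2.50 and 0.825 CPM in tofacitinib and 1.11, 1.97 and 2.74 CPM in sham 5xFAD-Dp16 animals, and at 2.57, 1.22, 2.19, 2.30 and 1.45 CPM in tofacitinib and 1.45, 2.59, 1.499 and 0.905 CPM in sham 5xFAD animals. In noncarriers only WT tofacitinib 1, at 2.00 CPM, lay above 1.704 CPM. Aspg had a median of 1.92 CPM (0.825 to 2.74) in carriers and 1.34 CPM (0.164 to 2.00) in noncarriers, with 7 of 16 carriers above every noncarrier. Its log2 fold change was 0.72 (SE 0.23, adjusted p = 0.155), and 0.65 (adjusted p = 0.319) without the 3 libraries. It passed in 1 of 34 fits without 1 library, that without WT sham 5, the highest of the sham WT animals at 1.501 CPM (adjusted p = 0.0476).

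The receptor and the genes of metal handling gave no call between carriers and noncarriers. Cd44 had a median of 6.87 CPM (3.78 to 11.3) in carriers and 6.53 CPM (2.88 to 10.3) in noncarriers (log2 fold change 0.06, adjusted p = 0.921). Its group means lay between 5.82 CPM in sham 5xFAD-Dp16 and 8.67 CPM in sham 5xFAD animals, with WT animals at 6.33 CPM with tofacitinib and 7.91 CPM with sham in between. Cp had a median of 17.3 CPM (11.9 to 42.8) in carriers and 18.5 CPM (12.96 to 26.7) in noncarriers (0.05, adjusted p = 0.931). Its reads overlap in position with Hps3 on the opposite strand, which had 5621 counts and no call (0.21, adjusted p = 0.442). The value of 42.8 CPM is that of 5xFAD-Dp16 sham 4, whose group otherwise held 17.2 and 16.5 CPM, and without the 3 libraries the log2 fold change of Cp was -0.15. Steap4 summed to 252 counts in carriers and 223 in noncarriers, with a fitted log2 fold change of 0.30 (SE 0.51, adjusted p = 0.884) that was -0.41 without the 3 libraries.

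Lcn2, often listed among the strongest reactive astrocyte genes after inflammation, was the 1 member whose fitted log2 fold change was below 0 (-1.38, SE 0.62, adjusted p = 0.418). It summed to 41 counts in carriers and 90 in noncarriers, a ratio per M counts of 0.508 (95% counting interval 0.342 to 0.743). The counts were 8, 6, 13 and 0 in tofacitinib and 2, 0 and 3 in sham 5xFAD-Dp16 animals, 1, 0, 0, 5 and 0 in tofacitinib and 0, 2, 1 and 0 in sham 5xFAD animals. They were 1, 5, 9, 15 and 6 in tofacitinib and 14, 4 and 4 in sham Dp16 animals, and 0, 6, 0, 7 and 0 in tofacitinib and 6, 4, 9, 0 and 0 in sham WT animals. Lcn2 was at 0 in 7 carriers and 5 noncarriers, and libraries at 0 stood beside libraries with 9 or 13 counts in the same group. Neutrophils also express Lcn2, and 3 of their 6 markers passed the filter. The summed level of those 3 was 0 to 3.29 CPM (median 0.683) in carriers and 0 to 2.103 CPM (median 0.796) in noncarriers. S100a8 reached 21 counts in a library and was at 0 in 7, S100a9 reached 24 counts (0 in 8) and Ngp 15 (0 in 10), while Ly6g was at 0 in 33 libraries. These counts are of the size of those of Lcn2 itself. The part of those cells in the Lcn2 counts was not tested.

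**Figure D2:**
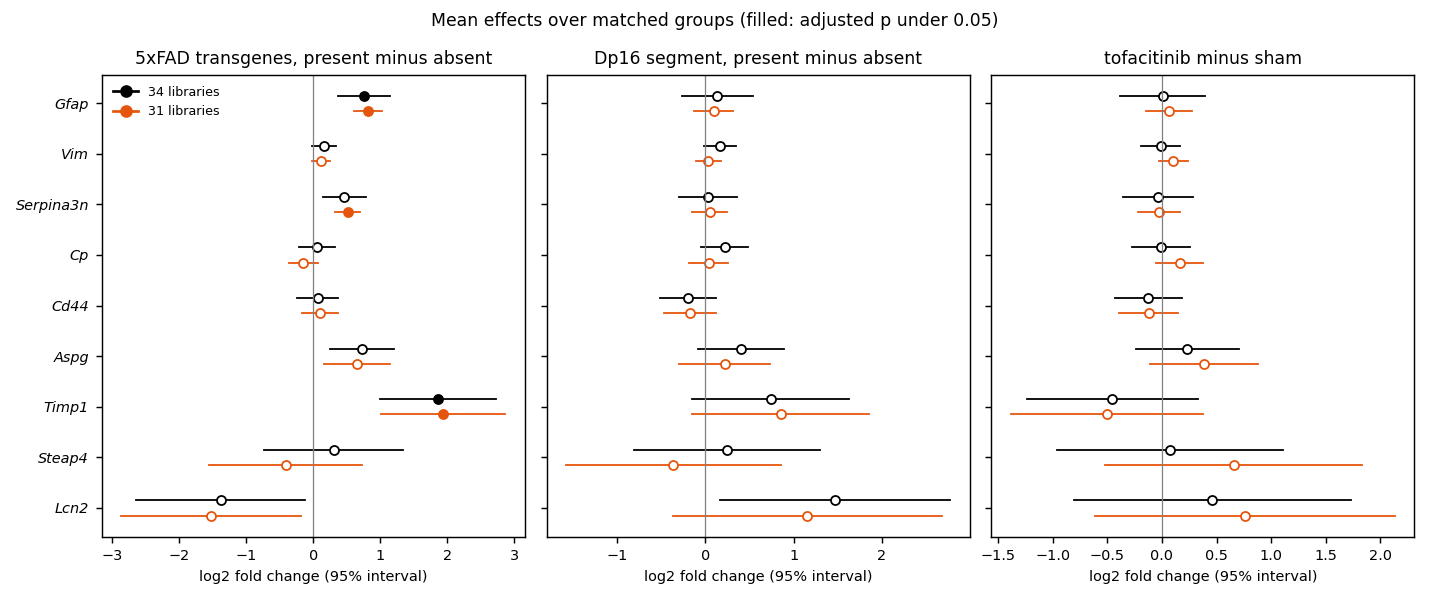
Points are the log2 fold change of each member for the 5xFAD transgenes, the Dp16 segment and tofacitinib, each averaged over its matched contrasts, with 95% intervals. Black is the fit to 34 libraries and orange that to 31, and filled points have an adjusted p under 0.05. Gfap and Timp1 are filled for the transgenes in both fits and Serpina3n in that of 31 libraries, and no point is filled for the segment or the drug.

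Pair by pair, the contrasts behind that mean rest on 3 to 5 animals a group. Between sham 5xFAD and sham WT animals Gfap averaged 982 ± 312 CPM (SD, n = 4) against 467 ± 74.8 CPM (n = 5), a log2 fold change of 1.07 (SE 0.36, adjusted p = 0.503). No member was called with 34 libraries, where 0.445% of all genes were, although 3 had an unadjusted p under 0.05 (Gfap, Serpina3n and Aspg), and DESeq2 called 0. These 2 groups hold none of the 3 libraries, yet the fit without them, in which the SE of Gfap was 0.18 in place of 0.36, called 2 members (0.615% of genes): Gfap (1.06, adjusted p = 0.00261) and Serpina3n (0.71, adjusted p = 0.0354). Aspg had a log2 fold change of 1.20 (adjusted p = 0.692).

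Between tofacitinib 5xFAD and tofacitinib WT animals 1 member was called, Timp1, where 0.32% of all genes were. Timp1 had 45 counts in the 5xFAD and 1 in the WT group, a ratio of 43.1 with a 95% counting interval of 7.35 to 1740. Its adjusted p was 0.0171, and 0.0294 without the 3 libraries. Gfap averaged 825 ± 415 CPM (n = 5) in the 5xFAD group and 429 ± 171 CPM (n = 5) in the WT group, and did not pass (0.94, adjusted p = 0.487). In the set of 31 libraries it averaged 981 ± 260 CPM (n = 4) against 503 ± 50.1 CPM (n = 4) and passed (0.96, adjusted p = 0.0165), which made 2 members called (0.459% of genes).

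The Timp1 call between these groups was lost without tofacitinib WT library 1, 2, 3 or 5 or tofacitinib 5xFAD library 1 or 5, each left out alone.

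In the 5xFAD-Dp16 background the contrasts with Dp16 animals called no member. With sham, Gfap averaged 714 ± 244 CPM (n = 3) in 5xFAD-Dp16 and 597 ± 40.8 CPM (n = 3) in Dp16 animals (0.26, adjusted p = 0.902; 0.0% of genes called, 0 members with an unadjusted p under 0.05). Without library 4 the first mean was 854 ± 20.8 CPM (n = 2), and without the 3 libraries the log2 fold change was 0.52, with 0 members called (0.0168% of genes) and 3 at an unadjusted p under 0.05 (Gfap, Serpina3n and Timp1). With tofacitinib, Gfap averaged 967 ± 140 CPM (n = 4) in 5xFAD-Dp16 and 581 ± 88.2 CPM (n = 5) in Dp16 animals. No value of 1 group reached the other, a split that was not counted over all genes. That difference (0.74, SE 0.36) did not pass, nor did it without the 3 libraries (0.73, SE 0.18, adjusted p = 0.202), where 0.0559% of genes did, against 0.0285% with all. DESeq2 called 0 members in either contrast.

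Against WT animals of the same treatment, sham 5xFAD-Dp16 animals gave no call among the members (0.959% of genes called). Aspg had 1.46 (SE 0.48, adjusted p = 0.146), the 1 member with an unadjusted p under 0.05, and DESeq2 called 0. Without the 3 libraries 0 members were called too (0.475% of genes), and those with an unadjusted p under 0.05 were Gfap (0.88, adjusted p = 0.105) and Serpina3n (0.58, adjusted p = 0.406). With tofacitinib, Timp1 was called (0.537% of genes) and Gfap, Serpina3n and Vim had an unadjusted p under 0.05 without passing. Timp1 was present with 27 counts in 5xFAD-Dp16 and 1 in WT animals, a ratio of 30.5 (95% counting interval 5.02 to 1247, adjusted p = 0.0382). Leaving out the 3 libraries ended the Timp1 call (adjusted p = 0.0791), and Gfap was called instead (0.94, adjusted p = 0.0124; 0.705% of genes). The Timp1 call was also lost without tofacitinib 5xFAD-Dp16 library 1 or 3 or tofacitinib WT library 1, 2, 3 or 5, each left out alone. Contrasts that share a group, such as these, are not independent of each other.

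The Dp16 segment was addressed in the same way, by the mean of 4 contrasts of animals with the segment against animals without it. No member passed, where 1.38% of all genes did (1.89% without the 3 libraries). Lcn2 was the 1 member with an unadjusted p under 0.05, at a log2 fold change of 1.47 (SE 0.64, adjusted p = 0.309), and DESeq2 called 0. Gfap differed by 0.14 (95% interval -0.27 to 0.54, adjusted p = 0.856), Vim by 0.16 (-0.02 to 0.34, adjusted p = 0.447), Serpina3n by 0.03 (-0.30 to 0.36) and Timp1 by 0.74 (-0.15 to 1.63, adjusted p = 0.507). None of the 9 genes lies on chromosome 16, which carries the extra copy.

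By pair, 0 members were called in each of 4 contrasts, and DESeq2 called 0 in each. Sham Dp16 against sham WT gave 0.308% of genes called and Aspg at 1.02 (unadjusted p = 0.0492, adjusted p = 0.680), with 1.51, 1.60 and 1.17 CPM in Dp16 animals against 0.528, 0.843, 0.495, 0.164 and 1.501 CPM in WT animals. Tofacitinib Dp16 against tofacitinib WT gave 0.268% and Timp1 at an unadjusted p of 0.000803 (adjusted p = 0.190), from 24 counts against 1. Sham 5xFAD-Dp16 against sham 5xFAD gave 0.268% and 1 member, Cp, with an unadjusted p under 0.05, and the tofacitinib pair gave 0.217% and none. Without the 3 libraries 0 members were called in these contrasts too, where 0.313% of genes were for tofacitinib and 0.666% for sham Dp16 against WT, 0.151% for sham and 0.241% for tofacitinib 5xFAD-Dp16 against 5xFAD.

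Tofacitinib left no call in the members. Over the 4 genotypes 0 of 9 members passed, and so did 0.0% of all genes, of which 1354 had an unadjusted p under 0.05 and DESeq2 called 2. No member was among those 1354 or those 2. Gfap differed by 0.01 between tofacitinib and sham animals, with a 95% interval of -0.38 to 0.40, or 0.06 (-0.15 to 0.27) without the 3 libraries. For Serpina3n the difference was -0.03 (-0.35 to 0.29), or -0.03 (-0.22 to 0.16) without the 3 libraries. For Gfap, log2 changes between -0.38 and 0.40 in 34 libraries, and between -0.15 and 0.27 in 31, are therefore not excluded.

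The other members were as far from a call. Vim differed by -0.01 (95% interval -0.19 to 0.16), Cp by -0.01 (-0.28 to 0.26), Cd44 by -0.13 (-0.43 to 0.18), Aspg by 0.23 (-0.24 to 0.71), Timp1 by -0.46 (-1.24 to 0.33), Lcn2 by 0.46 (-0.80 to 1.73) and Steap4 by 0.08 (-0.96 to 1.11). The adjusted p-values were between 0.789 and 0.996.

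Within a genotype, the drug gave 0 members called in 5xFAD-Dp16 (0.0% of genes), 5xFAD (0.0%), Dp16 (0.00571%) and WT animals (0.0%), with 0 by DESeq2 in each. It gave 0 without the 3 libraries as well (0.00559% of genes in Dp16 animals). In WT animals Timp1 had 1 count in all 5 tofacitinib animals and 19 in the 5 sham animals, and every sham animal had at least 1 count. Its unadjusted p was 0.00134 and its adjusted p 1.0 over all genes. Members with an unadjusted p under 0.05 numbered 0 in the other 3 genotypes with all libraries, and without the 3 libraries 1, Steap4 in 5xFAD-Dp16 animals.

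Whether 1 factor changed the effect of another was tested directly, and no member passed in any of 3 such tests (0.0% of genes in each). For Gfap the transgene effect with the segment was lower than that without it by 0.51 on the log2 scale (-0.51, adjusted p = 0.942), and by 0.38 (-0.38) without the 3 libraries. The tofacitinib effect on Gfap in carriers minus that in noncarriers was 0.18. For Timp1 the tofacitinib effect with the segment minus that without it was 1.76 (adjusted p = 0.760), the 1 member of the 3 tests with an unadjusted p under 0.05. DESeq2 called 0 members in the 3 tests. Each of these tests averages over the remaining factor. Whether the Timp1 difference from WT animals itself differs between tofacitinib and sham was therefore not tested.

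Between females and males no member was called (0.0628% of genes, and 0.0615% without the 3 libraries), nor did the sex difference depend on the transgenes (0.0% of genes). Gfap averaged 837 ± 297 CPM (SD, n = 7) in female carriers and 912 ± 311 CPM (n = 9) in male carriers, and 531 ± 91.3 CPM (n = 9) in female noncarriers and 489 ± 154 CPM (n = 9) in male noncarriers. No member had an unadjusted p under 0.05 in either test, and DESeq2 called 0.

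Related gene lists, also chosen by name with earlier results of these data known, give the setting of these changes. Of 14 homeostatic astrocyte markers tested, 0 were called in the mean transgene contrast with a median log2 fold change of 0.03, and their summed level was 9950 to 14165 CPM (median 12174) in carriers and 10525 to 14788 CPM (median 12388) in noncarriers. Of the members, 8 of 9 were above 0 with a median of 0.30, beside a median of 0.0018 over all genes. In 31 libraries 6 of 9 were, with a median of 0.12. Of the 4 other genes usually called pan-reactive, 1 rose, the chemokine gene Cxcl10 (1.84, adjusted p = 0.0183). Of 11 tested A1-type genes, those of an inflammatory astrocyte response, 5 rose and 0 fell. They include H2-D1, a class I antigen-presenting molecule (0.73, adjusted p = 6.46e-06), the interferon-inducible GTPases Iigp1 (0.66) and Gbp2 (0.57), and the immunoproteasome subunit Psmb8 (0.56). These are interferon-inducible genes that other brain cells also express.

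Of 9 tested A2-type genes, described after ischaemia, 1 rose, Cd14 (0.88, adjusted p = 0.000328), a lipopolysaccharide co-receptor that microglia also express. Of 10 genes described in plaque-associated astrocytes 2 rose, the tetraspanin Cd9 (0.42) and the cathepsin Ctsb (0.21). Of 14 tested genes of gp130 and STAT3 signalling 0 passed, and of 11 other intermediate filament genes 0 passed. Of the 14, 13 were above 0 (median 0.14), a count with no share of all genes beside it. Signs of genes measured in the same libraries are not independent. No gene of these lists passed for tofacitinib. For the Dp16 segment Iigp1 (0.78) and H2-D1 (0.37) rose and the astrocyte receptor Fgfr3 fell by 0.32 (-0.32, adjusted p = 0.0105). Of the myelinating oligodendrocyte markers Mobp rose with the segment (0.44, adjusted p = 0.0307), also without the 3 libraries (0.36, adjusted p = 0.0215). Without the 3 libraries H2-D1 (adjusted p = 0.0386 with them) was no longer called, Iigp1 (0.73) and Fgfr3 (-0.39) still were, and the metallothionein Mt2 of the plaque-associated list was added (0.31, adjusted p = 0.00904).

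Microglial markers moved with the transgenes beside Gfap, Serpina3n and Timp1. Of 10 microglia markers 7 rose (median 0.53), among them the chemokine receptor gene Cx3cr1 (0.49), and 10 of 10 rose without the 3 libraries. Their summed level was 395 to 1053 CPM (median 652) in carriers and 402 to 510 CPM (median 461) in noncarriers. Of 12 genes of plaque-associated microglia 9 rose (median 1.10), among them Cst7 (6.48), Clec7a (3.86) and Ccl6 (2.48). Their summed level was 512 to 1072 CPM (median 713) in carriers and 384 to 470 CPM (median 415) in noncarriers, with no overlap. How many genes split in this way was not counted. Ctsd reached 13012 counts in a library and Axl, the next highest of the list, 2142, so the sum mostly follows Ctsd. The part of microglia in the members' values was not tested.

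Within carriers, Gfap was higher in the animals with more plaque-associated microglial RNA. Over 16 carriers Gfap and the mean log2 CPM of those 12 genes had Pearson's r of 0.809 and Spearman's rho of 0.900 (permutation p = 5e-05 and 2e-05, adjusted 0.00144 and 0.00072 over 36 relations each). Without the 3 libraries r was 0.910 (permutation p = 1e-05, the smallest that 100000 permutations can give, adjusted 0.00036) and rho 0.864 (adjusted 0.00414) over 14 carriers. Without the 2 carriers farthest from the median of the marker mean r was 0.784 of 16 and 0.825 of 14. After subtraction of each group's mean r was 0.845 and 0.947. In noncarriers r was 0.265 over 18 libraries (adjusted 0.529) and 0.517 over 17, without WT tofacitinib 3 (adjusted 0.177).

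Serpina3n gave r of 0.815 over 16 carriers (adjusted 0.00144, rho 0.744, adjusted 0.0179), and 0.676 over 14 (adjusted 0.0730, rho 0.635), so its relation rests in part on the libraries low in hippocampal markers. For Timp1 r was 0.0294 over 16 carriers (rho -0.0647, adjusted 0.963 and 0.812). These relations were chosen after the data were seen, the points share depth and tissue composition, and the labels give no batch to examine them within.

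**Figure D3:**
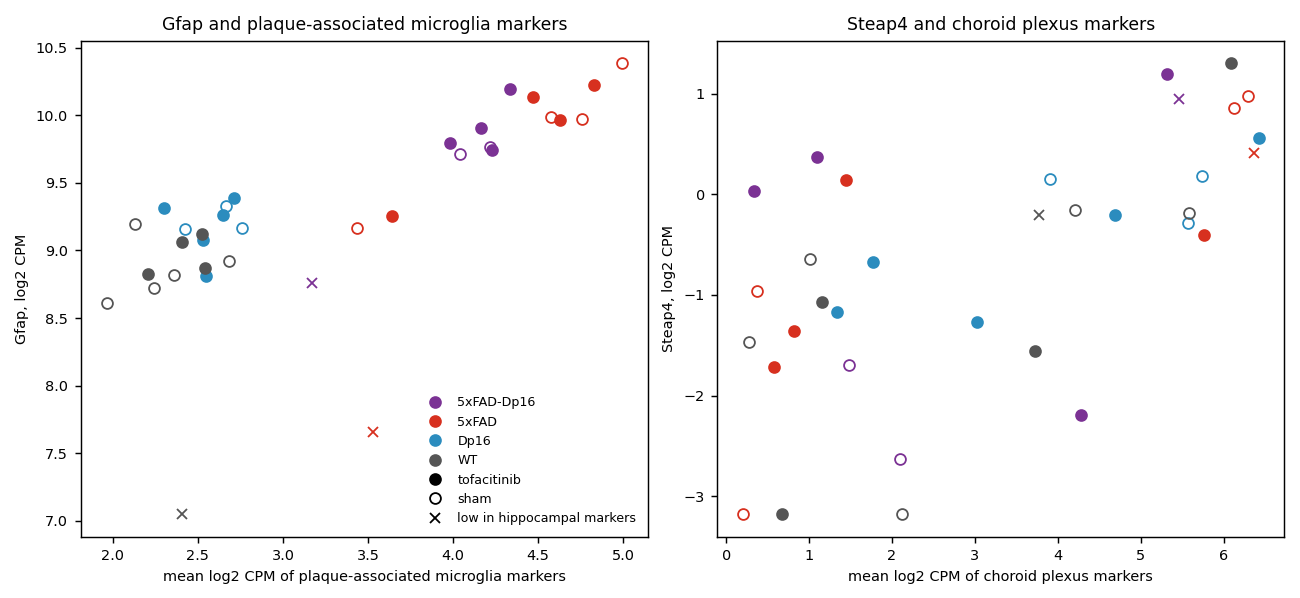
Left, log2 CPM of Gfap against the mean log2 CPM of 12 genes of plaque-associated microglia; right, log2 CPM of Steap4 against the mean log2 CPM of 8 choroid plexus markers. Points are the 34 libraries coloured by genotype, and crosses are the 3 libraries low in hippocampal markers. Gfap climbs with the marker mean among carriers (r of 0.910 without the 3 libraries), and Steap4 with choroid plexus markers among noncarriers (r of 0.722).

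Steap4 varied with markers of the choroid plexus, the secretory tissue of the ventricles that borders the hippocampus. Its 8 markers summed to 27.3 to 4840 CPM (median 72.1) in carriers and 25.3 to 5643 CPM (median 858) in noncarriers. Over 18 noncarriers Steap4 and the marker mean had r of 0.722 (adjusted 0.00456) and rho of 0.816 (adjusted 0.00162), and r of 0.664 without the 2 farthest animals (permutation test). Over 17 noncarriers without the odd library r was also 0.722 (adjusted 0.0121), and 0.666 without the 2 farthest. In carriers r was 0.586 over 16 (adjusted 0.136) and 0.520 over 14 (adjusted 0.215). Gfap had r of -0.613 with the same markers over 16 carriers (adjusted 0.0291, rho -0.582, adjusted 0.0954), -0.683 without the 2 farthest, and -0.519 over 14 (adjusted 0.215). In noncarriers the sign was the other way, with r of 0.186 over 18 (adjusted 0.786) and 0.526 over 17 (adjusted 0.177). The part of tissue composition in the relation of Gfap with microglial genes was not tested. Steap4 counts were 41, 19, 2 and 20 in tofacitinib and 1, 3 and 33 in sham 5xFAD-Dp16 animals, and 5, 21, 3, 19 and 12 in tofacitinib and 36, 0, 7 and 30 in sham 5xFAD animals. They were 5, 28, 7, 14 and 10 in tofacitinib and 19, 12 and 17 in sham Dp16 animals, and 6, 0, 11, 47 and 4 in tofacitinib and 11, 14, 14, 0 and 4 in sham WT animals. In tofacitinib WT animals alone single libraries ran from 0 to 47 counts.

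Among themselves the members did not vary as 1 block. After subtraction of group means, the 36 pairs of members had a median r of 0.143 over 34 libraries, from -0.414 to 0.836, with 26 above 0. Over 31 libraries the median was 0.0965, from -0.359 to 0.604, with 27 above 0. The pair of Gfap and Serpina3n was at the top with 0.836 over 34 and 0.604 over 31 libraries, and Gfap and Vim had 0.666 and 0.581. Vim went with Cp (0.465 and 0.526) and with Lcn2 (0.515 and 0.500). Gfap and Steap4 had -0.414 and -0.359. The points share library depth and tissue composition, so these values are descriptions.

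**Figure D4:**
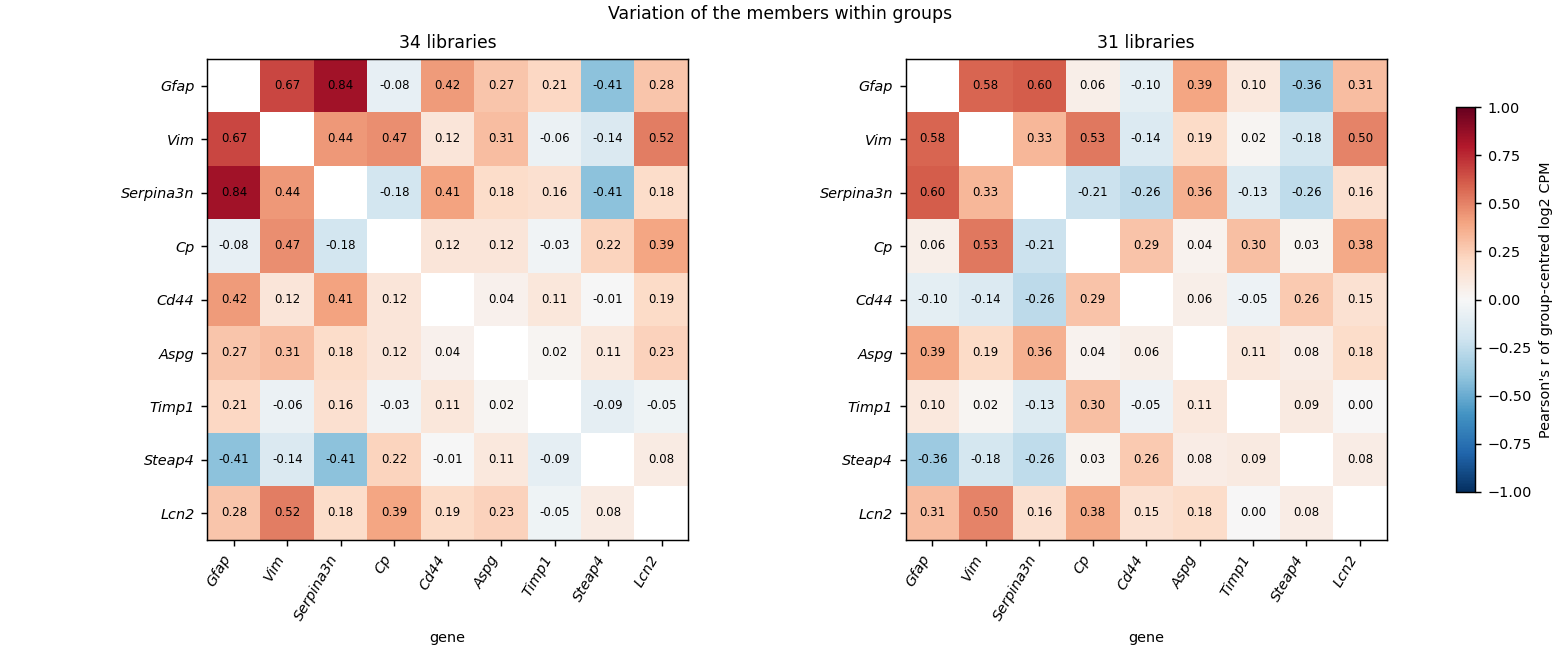
Cells give Pearson's r between 2 members after subtraction of group means from log2 CPM, over 34 libraries (left) and 31 libraries (right). Gfap and Serpina3n form the strongest pair (0.836 and 0.604), and the median over 36 pairs is 0.143 and 0.0965.

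Outside the list, the genes whose group-centred level was most like Gfap over 34 libraries were Lmo1 (r = 0.917), Cabp7 (0.907), Nek6 (0.906), Klhl6 (0.894) and Tdo2 (0.890). Over 31 libraries they were C1qb (0.866), Slc14a1 (0.857), Ly86 (0.837), Gusb (0.833) and C1qa (0.831), and no gene stood among the first 5 in both. C1qa and C1qb encode complement components made by microglia. For the mean of the 9 members, Hcar1 was among the first 5 in both sets (0.833 over 34 and 0.715 over 31 libraries).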

How the data were processed

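Total RNA of the hippocampus of 34 mice was poly(A)-enriched and sequenced as strand-specific libraries, per the labels' protocols. The deposited counts are whole, unnormalised read counts per gene made by the authors, and the deposited RPKM values equal those counts divided by the library total and a gene length for 12463 genes with at least 20 counts. The submitters' processing notes name HISAT2 2.1.0, SAMtools 1.5, HTSeq 0.6.1 and GRCm38 without their roles. The labels assign every library to 1 of 8 groups.

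After filterByExpr by group and TMM scaling, edgeR 4.0.16 (R 4.3.3; robust quasi-likelihood F-test, two-sided) was run in 1 fit with 8 group means and sex (25 residual degrees of freedom). The F statistic gave the standard error of each fold change. The 22 comparisons were contrasts, adjusted by Benjamini-Hochberg over 17518 genes with a threshold of 0.05, and adjusted p-values of genes are edgeR's unless DESeq2 1.42.0 is named. RPKM served to compare levels between genes and entered no fit. Log2 CPM used a prior count of 2. Recovery of known fold changes was tested on simulated data. The p-values of genes take animals as units, with a spread estimated over all 8 groups together and not over the compared groups alone. Those of the relations with marker lists come from permutation over all carriers or all noncarriers, across their groups. Counting intervals are exact at 95% and cover counting error only.

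The members are named whatever their values, and at most 4 genes of each list per comparison, those past the threshold with the smallest p. Likeness names the 5 genes with the highest correlation among those with a mean of at least 1 CPM, leaving out unnamed gene models. The members, the 21 lists and the tests were chosen with earlier results of these data known. Positions are from GENCODE release M21 on GRCm38, which holds 99.6% of the gene identifiers. Alternatives were other size factors, no filter, no sex term, a replicate block, the compared groups alone and DESeq2. Each library was also left out in turn, as were the 3 low in hippocampal markers. For the members' mean levels in carriers and noncarriers, RPKM took the place of CPM, with no test. The relations with marker lists, by two-sided permutation, the weaker filters on low counts and the fits that left out 1 more of the 31 libraries were added after seeing the data.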

Additional observations from a re-analysis of the deposited data

Results flagged for a closer look

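Of 54 groups of 4 or 5 libraries examined for a single value far from the rest, 5 had one. The rule flags about 1 in 20 by chance if values are normally spread. That rate does not hold for counts near 0, such as those of Timp1 and Lcn2. Gfap was at 133 CPM in WT tofacitinib 3, and the nearest of the other 4 was at 454 CPM. Serpina3n was at 10.4 CPM in the same library, and the nearest was at 34.3 CPM. That library is 1 of the 3 low in hippocampal markers. Aspg was at 0.764 CPM (16 counts) in Dp16 tofacitinib 3, and the nearest of its group was at 1.501 CPM. Lcn2 was at 0.261 CPM in 5xFAD tofacitinib 5, which is 5 counts, and the nearest was at 0.0560 CPM, which is 1 count. Timp1 was at 0.0501 CPM in WT tofacitinib 4, which is a single count beside 4 libraries with none.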

How the results depend on the processing

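Beside leaving out single libraries, the planned settings kept 136 of 154 values and turned the direction of 10 of 284 gene values. Most of the 154 were counts of called members, kept if they stayed at 0 or within 1.5 times. The count in the fit reported was 0 in most comparisons. Log2 ratios of mean levels, by RPKM against CPM, were kept if they moved by less than the SD over carriers. The median r between members was entered as moved. The fit with no filter on low counts cannot be read as the others: its prior degrees of freedom were infinite (5.84 in the fit reported), so each gene's own spread was replaced by the trend, and the quasi-dispersion of Gfap was 0.611 in place of 4.88. It called 3 members for the transgene mean (Serpina3n at an adjusted p of 1.16e-10 and Gfap at 5.19e-28), 2, 3 and 2 for sham 5xFAD against WT, 5xFAD-Dp16 against 5xFAD and 5xFAD-Dp16 against WT, 3, 1, 1 and 3 for tofacitinib 5xFAD against WT, 5xFAD-Dp16 against Dp16, Dp16 against WT and 5xFAD-Dp16 against WT, and 1 each for transgenes by segment (Gfap -0.51) and tofacitinib by segment (Serpina3n 0.52). It tested 31281 genes and called 884 in the transgene mean, against 279 of 17518. Filters of at least 5, 10, 34 and 100 counts in all libraries together, added after seeing this, tested 26910, 24699, 21077 and 18339 genes and had prior degrees of freedom of 11.4, 9.88, 7.42 and 6.11. They called 251, 261, 257 and 273 genes in the transgene mean and 1, 1, 1 and 2 members, Gfap being the call lost. Serpina3n did not pass in any of these (adjusted p 0.218 to 0.299), and with at least 5 counts 0 members passed for tofacitinib 5xFAD-Dp16 against WT. DESeq2 called 404 genes in the transgene mean. On the compared groups alone the counts were 1 for sham 5xFAD against WT, 1 for tofacitinib 5xFAD-Dp16 against Dp16, and 0 for tofacitinib 5xFAD and 5xFAD-Dp16 against WT, from fewer samples. Without the 3 libraries they were 2 for 5xFAD against WT with sham and 2 with tofacitinib, and the median r between members was 0.0965.

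Animals of different groups with equal replicate numbers were little more alike than those with unequal ones. The 98 same-numbered pairs had a median correlation of 0.0346 and 34 of them were over 0.1. The 405 pairs with other numbers had a median of -0.0163 and 119 of them were over 0.1. With the number as a block, 0 members passed in the transgene mean (Gfap 0.70, adjusted p = 0.170; Timp1 1.85, adjusted p = 0.0547) and 0 in tofacitinib 5xFAD-Dp16 against WT.

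Signs turned only in comparisons where the gene concerned had no call. Without the 3 libraries Steap4 was at -0.41 and Cp at -0.15 for the transgenes, Steap4 at -0.36 for the segment, Vim at 0.10 and Cp at 0.16 for tofacitinib, and Steap4 at -2.01 and Cp at -0.16 for sham 5xFAD-Dp16 against WT. With the block Vim was at 0.035 and Cp at 0.017 for tofacitinib, and Steap4 at -0.22 for sham 5xFAD-Dp16 against WT. Leaving out 1 library at a time gave 1 to 2 members for the transgenes, 0 to 2 for tofacitinib 5xFAD against WT (2 without 5xFAD tofacitinib 2) and 0 to 1 for tofacitinib 5xFAD-Dp16 against WT. For the transgenes Cd44 then ranged from -0.0062 to 0.13, Steap4 from -0.36 to 0.60 and Cp from -0.11 to 0.11. For the segment Serpina3n ranged from -0.028 to 0.14 and Steap4 from -0.47 to 0.52. For tofacitinib Gfap ranged from -0.062 to 0.080, Vim from -0.047 to 0.042, Serpina3n from -0.12 to 0.031, Steap4 from -0.22 to 0.74 and Cp from -0.069 to 0.16. For sham 5xFAD against WT Cd44 ranged from -0.020 to 0.23 and Timp1 from -0.024 to 0.59, and for sham 5xFAD-Dp16 against WT Serpina3n ranged from -0.039 to 0.58, Steap4 from -2.07 to 1.12 and Cp from -0.20 to 0.71. Depth limits Timp1, Lcn2 and Steap4, which rest on 164, 131 and 475 counts in 34 libraries.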
